A study of Mus musculus with 20 samples.

Results

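The mitochondrially encoded genes were followed in the heart apex of 20 mice, as the rows of the count table whose gene name begins with mt-. They numbered 37 of 25308 genes, namely 13 protein genes, 2 rRNA genes and 22 tRNA genes. The mice fell into 3 groups. AL were 9 double homozygous λS-DH mice with amyloid deposits in the heart, seeded by injection with the fibrillar or soluble variable domain of the λS light chain. LS were 4 λS-DH mice that had not been induced and had no deposits. Ctrl were 7 DH-LMP2A mice, matched for age. All 20 mice carried the DH-LMP2A background, on which plasma cells form without immunoglobulin heavy chains and secrete free light chains. λS-DH mice also carry the cDNA of 1 patient's human λ light chain at the Ig kappa locus, so that locus, active in B-lineage cells, drives the transgene. Both sexes were used in the study, and the age of each sequenced mouse was not given in the sources used here.

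The mitochondrial genome is a small circle that lies in many copies in each mitochondrion. Its protein genes code for core subunits of respiratory complexes I, III and IV and of ATP synthase, and its rRNA and tRNA genes serve the mitochondrion's own ribosomes. A nuclear-encoded polymerase copies each strand as a long precursor, from which most mRNAs are cut out at the tRNAs that lie between them. Heart muscle is among the tissues richest in mitochondria, and its mitochondrial mRNAs are correspondingly abundant.

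In the mouse GENCODE M21 annotation (build GRCm38), 9 of the 37 genes lie on the minus strand, 8 tRNA genes and mt-Nd6. Where 2 protein genes overlap, reads in the shared bases cannot be assigned to 1 gene from the sequence alone. There were 3 overlaps between neighbours on the same strand and 1 between genes on opposite strands, and the libraries kept the strand. The plus strand around each overlap is given here, with the shared bases in capitals and 30 bases on either side, since reads of short genes such as mt-Atp8 and mt-Nd4l partly lie in them.
mt-Atp8 and mt-Atp6, chrM:7897-7999: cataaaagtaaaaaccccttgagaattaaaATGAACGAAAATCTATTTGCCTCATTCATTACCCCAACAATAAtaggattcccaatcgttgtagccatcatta
mt-Atp6 and mt-Co3, chrM:8577-8637: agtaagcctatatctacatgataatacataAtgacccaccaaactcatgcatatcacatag
mt-Nd4l and mt-Nd4, chrM:10137-10203: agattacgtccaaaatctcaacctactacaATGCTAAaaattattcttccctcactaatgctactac
mt-Nd5 and mt-Nd6, chrM:13522-13595: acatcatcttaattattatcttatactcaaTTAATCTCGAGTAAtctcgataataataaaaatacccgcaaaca
The first pair shared 43 bases, which run from the start codon of mt-Atp6 to the stop codon of mt-Atp8, and lie within mt-Atp8, the shortest protein gene with 204 bases. The mt-Nd4l and mt-Nd4 genes shared 7 bases, mt-Atp6 and mt-Co3 shared 1, and the opposed genes mt-Nd5 and mt-Nd6 shared 14 at their ends.

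The tRNA genes were not measured by these libraries. Of the 22, 19 had no count in any mouse, which allows up to 3 counts per library, or 0.0479 to 0.381 CPM (the count scaled to 1000000 counts per library). The other 3 had 5 counts in total and at most 1 in a mouse. The genes are 59 to 75 bases long. The shortest, mt-Ts2, the tRNA for serine at chrM:11613-11671 on the plus strand, is shown for its size against the protein genes.
mt-Ts2: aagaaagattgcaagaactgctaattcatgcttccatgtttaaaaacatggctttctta

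The other 15 genes took a large part of each library. Their share of all counts lay between 18.3% (AL9) and 37.1% (LS4), with a median of 31.2%. Ranked by mean CPM over the 20 mice, 8 of the 10 most abundant transcripts were mitochondrial, with Myh6, the main myosin heavy chain of the adult mouse heart, in the fourth place. Total counts were 43993297 to 62668174 in the 15 mice of sequencing run 1 and 7867647 to 11794640 in the 5 mice of run 2 (AL8, AL9 and Ctrl5 to Ctrl7), so that values of run 2 are less precise. All LS mice were in run 1.

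Within run 1 the share did not separate the groups. It was 31.8% ± 1.498 in AL (SD, n = 7, range 30.2 to 34.1%), 34.4% ± 2.41 in LS (n = 4, 31.3 to 37.1%) and 32.3% ± 2.34 in Ctrl (n = 4, 29.4 to 35.0%). In run 2 the share was 26.4% in AL8 and 18.3% in AL9, against 30.4% in Ctrl5, 28.3% in Ctrl6 and 23.9% in Ctrl7. Over both runs the means were 29.7% ± 4.80 in AL (n = 9), 34.4% ± 2.41 in LS and 30.2% ± 3.58 in Ctrl (n = 7). AL9 was the lowest of all mice, and 4 of the 5 mice of run 2 lay below every mouse of run 1. The AL mean was 0.560 percentage points under the Ctrl mean with all mice and 0.863 points over it without AL9.

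**Figure D1:**
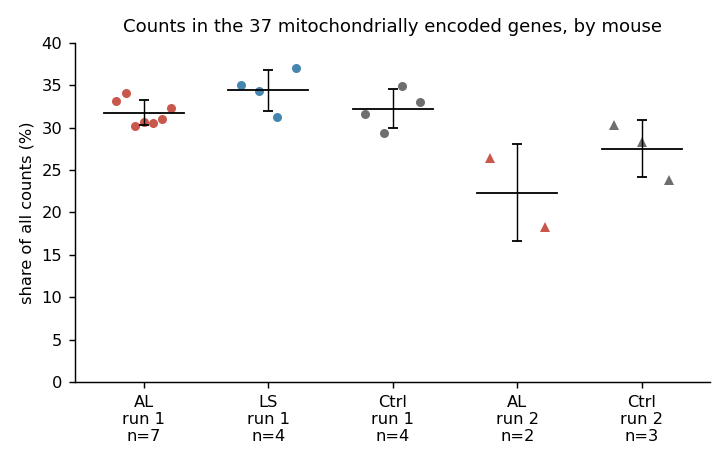
Share of all counts that fell on the 37 mitochondrially encoded genes, in percent, for each mouse by group and sequencing run (circles, run 1; triangles, run 2; line and bar, mean ± SD). The groups of run 1 overlap between 29.4 and 37.1%, and AL9 in run 2 is the lowest at 18.3%.

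Compared per length (CPM on total counts divided by gene length in kilobases, medians of run 1), mt-Co1, the catalytic core of complex IV, had the highest level at 84708. It was followed by mt-Cytb, the complex III subunit cytochrome b, at 34135. The ranges of these 2 genes in run 1 did not meet. Then came mt-Nd1 (26920), mt-Co3 (24720), mt-Co2 (23256), mt-Nd4 (21938) and mt-Nd2 (20350), whose ranges overlapped one another, and those of mt-Nd1 and mt-Co3 also met that of mt-Cytb. mt-Nd5 (12068) and mt-Atp6 (11214) overlapped too. The short genes mt-Atp8, mt-Nd4l and mt-Nd3 stood at 6573, 6093 and 3893. The rRNA genes mt-Rnr2 and mt-Rnr1 stood at 7018 and 2938 in these libraries, which were made from polyadenylated RNA. mt-Nd6, the single protein gene on the minus strand, was the lowest at 556, and its range of 429 to 686 met that of no other gene.

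The comparison of AL with Ctrl asks what accompanies amyloid deposits in the heart. The genes that passed the test all code for complex I subunits, and they were lower in AL. mt-Nd5, a proton-pumping subunit of complex I (ENSMUSG00000064367, chrM:11742-13565), had 9455 to 20355 CPM in the 7 AL mice of run 1 (median 14929), scaled by trimmed mean of M values (TMM). The 4 Ctrl mice of run 1 had 24478, 22189, 26870 and 23497 CPM. In run 2, AL8 had 10908 and AL9 had 9816, against 27338, 22156 and 15816 in Ctrl5, Ctrl6 and Ctrl7. AL and Ctrl did not overlap within either run, and over both runs AL2, AL3 and AL7 stood above the lowest Ctrl mouse, Ctrl7, and 6 of 9 AL mice below all 7. In the edgeR quasi-likelihood test with run as a term, mt-Nd5 was 1.76-fold lower in AL (log2FC -0.82, SE 0.133, FDR 0.000415).

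The membrane-arm subunit genes mt-Nd1 and mt-Nd2 fell less. mt-Nd1 (ENSMUSG00000064341, chrM:2751-3707) lay between 19849 and 25811 CPM in AL of run 1 (median 23000) and at 25766, 25788, 32875 and 29906 CPM in Ctrl1 to Ctrl4. In run 1, 6 of 7 AL mice were below all Ctrl mice, and AL1 was above the lowest of them. It was 1.31-fold lower over both runs (log2FC -0.39, SE 0.121, FDR 0.0236). mt-Nd2 (ENSMUSG00000064345, chrM:3914-4951) had 16414 to 21990 CPM in AL and 22252, 21461, 27552 and 22548 CPM in Ctrl of run 1, with 5 of 7 AL mice below all Ctrl mice. Its difference was of the same size (log2FC -0.39, SE 0.127, FDR 0.0285). In run 2, AL8 lay between Ctrl6 and Ctrl7 for both genes, at 17162 and 14156 CPM, and AL9 was below all Ctrl mice at 9214 and 8545 CPM.

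In all, 3 of the 15 genes were lower in AL at an FDR under 0.05 and 0 higher, while 15.4% of the 14477 genes tested were lower and 10.7% higher. With an absolute log2FC of at least 0.58 as well, 1 gene (mt-Nd5) was called, against 7.81% of all genes. The median log2FC was -0.29 over the 15 genes and -0.24 over the 13 protein genes, beside 0.01 over all genes tested. The share of the 15 genes that was lower lay near the background. The mt-Nd1 and mt-Nd2 calls were lost without the run term (FDR 0.371 and 0.321), with ComBat-seq counts (0.265 and 0.328), with cardiomyocyte marker level as a covariate (0.0957 and 0.101) and without Ctrl3 (0.0586 and 0.0754). That of mt-Nd2 was also lost with hepatocyte marker level as a covariate (0.0913), without AL9 (0.0755), in a fit of AL and Ctrl only (0.0525), without a filter (0.0513) and without Ctrl5 (0.0512). Over all 14477 genes, calls also fell, from 3792 to 2183 without the run term, 796 with ComBat-seq counts and 2547 with the cardiomyocyte covariate. In bulk tissue, fewer cells of a type and less RNA per cell cannot be told apart.

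The remaining complex I genes did not pass the test. mt-Nd3, which codes for a small subunit near the quinone site, stood on the other side of 0, with 1288 to 2221 CPM in AL of run 1 (median 1576) and 1126, 1054, 1486 and 1314 CPM in Ctrl1 to Ctrl4. In run 1, 6 of 7 AL mice were above all Ctrl mice. Its log2FC was 0.33 (SE 0.151, FDR 0.118) over both runs, 0.43 (FDR 0.0308) in run 1 alone and 0.45 (FDR 0.0201) without AL9. mt-Nd4l had a log2FC of -0.43 (SE 0.250, FDR 0.220). Ctrl2 had 550 CPM of mt-Nd4l, against 1859 to 2579 CPM in the other Ctrl mice of run 1, and without Ctrl2 the log2FC was -0.63 (FDR 0.0221). AL1 was likewise the lowest AL mouse of run 1 for mt-Nd4l (681 CPM) and for mt-Nd5 (9455 CPM), but the highest for mt-Nd3 (2221 CPM). mt-Nd4 had a log2FC of -0.17 (FDR 0.346) and mt-Nd6 of -0.51 (FDR 0.0742), and mt-Nd6 passed with DESeq2 (FDR 0.0317), with hepatocyte marker level as a covariate (log2FC -0.84, FDR 0.025) and without Ctrl3 or Ctrl7 (FDR 0.0403 and 0.0456).

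**Figure D2:**
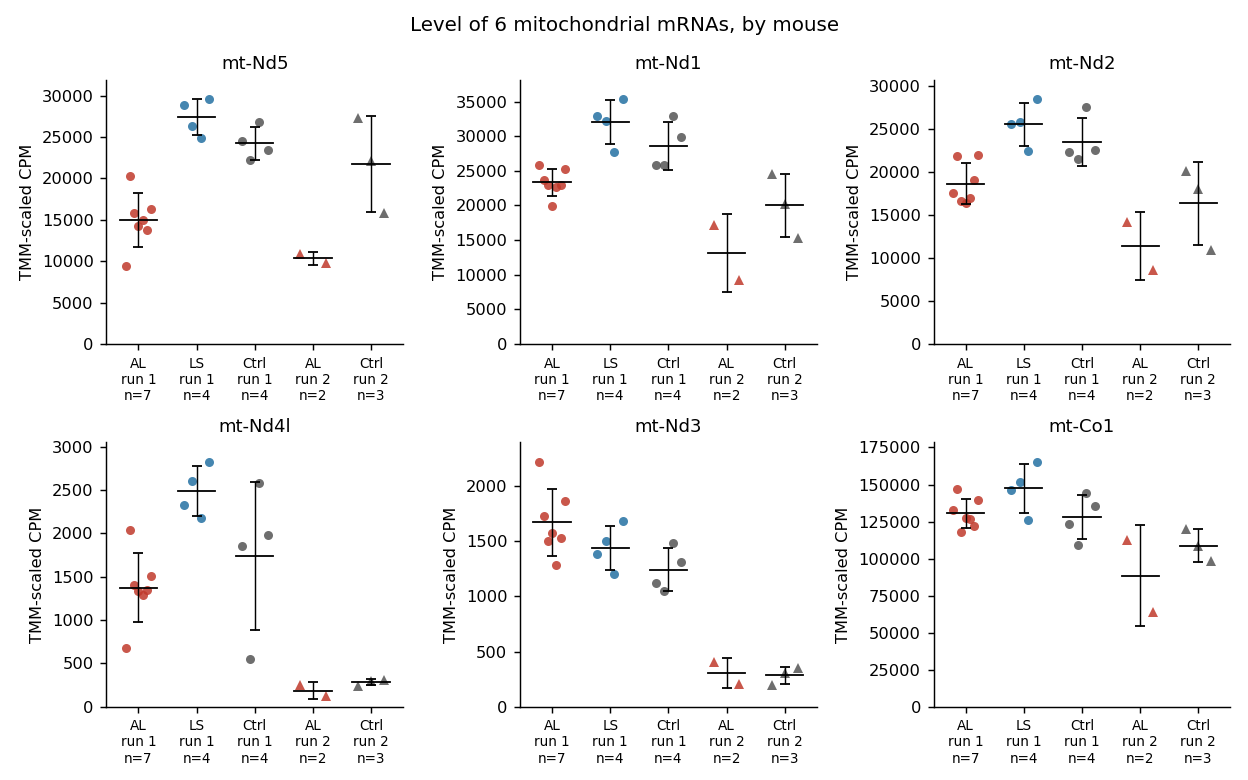
TMM-scaled CPM of mt-Nd5, mt-Nd1, mt-Nd2, mt-Nd4l, mt-Nd3 and mt-Co1 in each mouse by group and sequencing run (line and bar, mean ± SD). For mt-Nd5 the AL mice of run 1 end at 20355 CPM and the LS and Ctrl mice of run 1 begin at 22189 CPM, whereas for mt-Co1 the groups of run 1 overlap.

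The complex III and IV and ATP synthase genes showed no difference that passed the test. mt-Co1 was at 117928 to 146930 CPM in AL of run 1 and 109388 to 143947 CPM in Ctrl of run 1, and its log2FC was -0.08 (SE 0.107, FDR 0.629). The other complex IV genes had values of -0.24 for mt-Co2 (FDR 0.202) and -0.07 for mt-Co3 (FDR 0.732). mt-Cytb had -0.19 (SE 0.106, FDR 0.191). The ATP synthase genes mt-Atp6 and mt-Atp8 had -0.11 (FDR 0.601) and -0.36 (FDR 0.214), and mt-Atp8 passed with hepatocyte marker level as a covariate (log2FC -0.76, FDR 0.034). In run 1 alone the log2FC of mt-Co1, mt-Co3 and mt-Atp6 were 0.03, 0.06 and 0.09. The rRNA genes mt-Rnr1 and mt-Rnr2 had -0.29 (FDR 0.302) and -0.46 (FDR 0.117).

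The comparison of AL with LS holds the transgene constant and shares its AL mice with the comparison above. mt-Nd5 was at 28914, 26379, 24917 and 29573 CPM in LS1 to LS4, above all 9 AL mice, whose highest value was 20355 CPM. It was 1.89-fold lower in AL (log2FC -0.92, SE 0.151, FDR 0.000664). mt-Nd1 was at 32937, 32236, 27645 and 35322 CPM in LS, and mt-Nd2 at 25506, 25756, 22385 and 28430 CPM. All 7 AL mice of run 1 were below all LS mice for both, and the log2FC were -0.49 (SE 0.140, FDR 0.0168) and -0.48 (SE 0.147, FDR 0.0259). mt-Nd4l, whose mRNA also carries mt-Nd4, was at 2331, 2609, 2175 and 2823 CPM in LS and at 681 to 2044 CPM in AL of run 1, 1.85-fold lower (log2FC -0.89, SE 0.286, FDR 0.0313). mt-Nd4 on the same mRNA did not pass (log2FC -0.28, SE 0.148, FDR 0.170). The difference between the 2 genes was not tested, so whether the counts of the short mt-Nd4l stand for the level of that mRNA cannot be told.

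mt-Nd5, mt-Nd1, mt-Nd2 and mt-Nd4l were the 4 genes lower at an FDR under 0.05, and 0 were higher. Over all genes, 13.6% were lower and 9.77% higher. mt-Nd5 and mt-Nd4l passed the threshold of 0.58 as well, beside 8.9% of all genes. In run 1 the 7 AL mice lay wholly below the 4 LS mice in the same 4 genes. The share of all genes so separated was not counted, so whether this separation is particular to these genes cannot be told. The median over the 15 genes was -0.32, beside 0.01 over all genes tested. mt-Nd3 had a log2FC of 0.18 (FDR 0.494) and the other 10 genes values between -0.50 (mt-Atp8) and -0.19 (mt-Atp6). In run 1 alone 8 genes were lower, with mt-Co2, mt-Atp8, mt-Nd6 and mt-Cytb added (FDR 0.0332, 0.025, 0.0283 and 0.028). Calls over all genes, higher or lower, also rose in that fit, to 4640 of 14288, from 3381 of 14477 with both runs. Without LS4 only mt-Nd5 passed, and without LS1 or LS2 only mt-Nd5 and mt-Nd1. Calls over all genes also fell in these fits, to 2346, 2447 and 2255 without LS4, LS1 and LS2. ComBat-seq counts and the cardiomyocyte covariate also left mt-Nd5 alone, in fits that called 649 and 677 of all genes. mt-Nd4l was lost without the run term (FDR 0.193) and, with mt-Nd2, under the hepatocyte covariate (0.0748 and 0.0537). That covariate instead brought mt-Atp8 (log2FC -0.80, FDR 0.0238) and mt-Nd6 (-0.78, FDR 0.0389) past the threshold, as did a fit of AL and LS only (FDR 0.0366 and 0.022). mt-Cytb passed without AL8 or AL9 (FDR 0.043 and 0.0448).

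**Figure D3:**
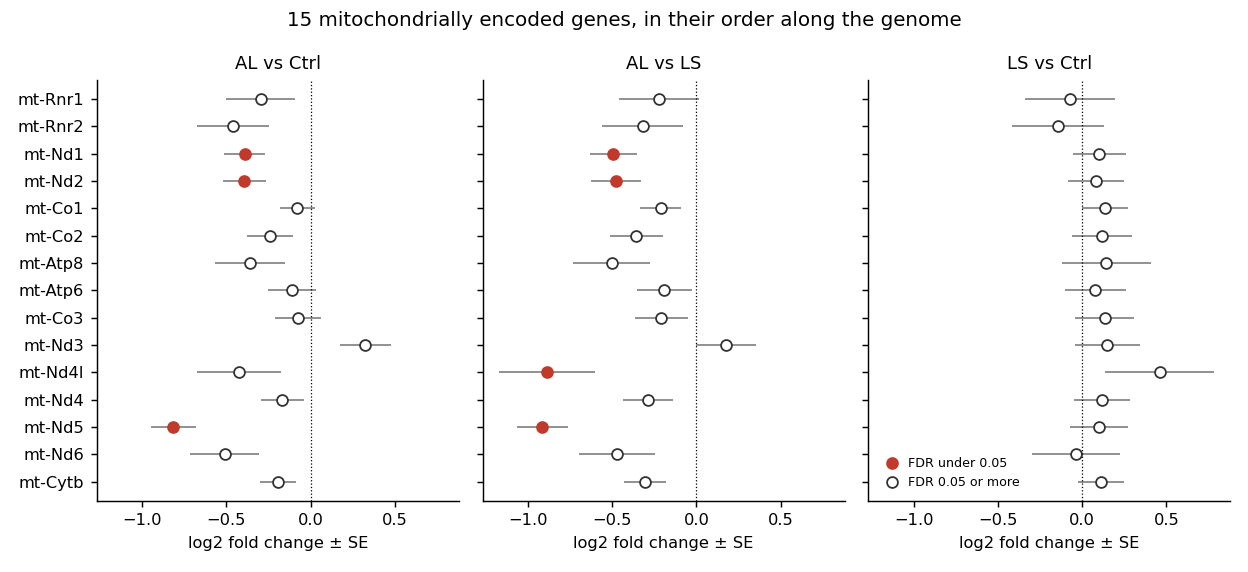
Log2 fold change ± SE (edgeR, run as a term) of the 13 protein genes and 2 rRNA genes in the order of their positions on the mitochondrial genome, for the 3 comparisons (filled, FDR under 0.05). mt-Nd5 has the lowest value in both AL comparisons, -0.82 and -0.92, mt-Nd3 is the only gene above 0 in them, and no gene is filled for LS against Ctrl.

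The comparison of LS with Ctrl asks what the light chain does without deposits, and it shares its mice with the comparisons above. 0 of the 15 genes passed an FDR of 0.05 in edgeR, 0 had an unadjusted p under 0.05, and DESeq2 called 0. Over all genes, 0.00691% were higher and 0.0138% lower, and 0.0207% also passed 0.58. The log2FC lay between -0.14 (mt-Rnr2) and 0.46 (mt-Nd4l, SE 0.322, FDR 0.890). For mt-Nd5 it was 0.10 (SE 0.173, FDR 0.969), for mt-Nd1 0.10 and for mt-Nd2 0.08. In run 1, 2 of 4 LS mice had more mt-Nd5 than any Ctrl mouse and none had less than all of them.

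The makeup of the mitochondrial mRNA pool does not depend on library size or scaling and is given as a description. The 7 complex I genes made up 27.6 to 30.96% of the counts of the 13 mRNAs in AL of run 1 (mean 29.6% ± 1.34), 33.0 to 34.5% in LS and 33.0 to 35.2% in Ctrl of run 1. The 3 complex IV genes made up 53.2 to 56.4% in AL of run 1, 50.4 to 51.5% in LS and 49.4 to 51.8% in Ctrl of run 1. AL thus lay apart from both other groups of run 1 in each share. The complex I genes did not share that gap evenly. Mean shares in AL and Ctrl of run 1 were 4.96 and 7.51% for mt-Nd5, 7.75 and 8.82% for mt-Nd1 and 6.17 and 7.25% for mt-Nd2. They were 9.67 and 9.64% for mt-Nd4, and 0.554 and 0.383% for mt-Nd3, which was higher in AL. In run 2 the groups overlapped, since Ctrl7 had 28.5% complex I and 55.3% complex IV, near AL8 (27.6 and 56.0%) and AL9 (29.2 and 54.3%), while Ctrl5 had 34.8 and 49.5% and Ctrl6 32.2 and 51.6%.

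Among single genes of the pool, mt-Nd5, mt-Co1 and mt-Nd3 set AL of run 1 apart as well. mt-Nd5 was 3.04 to 5.95% of the mRNA pool in AL of run 1, 7.06 to 7.85% in LS and 6.99 to 7.97% in Ctrl of run 1. In run 2 it was 4.50% in AL8 and 7.05% in AL9, against 9.31, 8.65 and 7.45% in Ctrl5 to Ctrl7. mt-Co1 made up 42.5 to 44.4% in AL of run 1, 39.4 to 40.6% in LS and 39.1 to 40.4% in Ctrl of run 1, and Ctrl7 had 46.2%, between AL9 (46.1%) and AL8 (46.5%). mt-Nd3 made up 0.453 to 0.714% in AL of run 1, 0.374 to 0.409% in LS and 0.359 to 0.403% in Ctrl of run 1. Since the shares of a pool sum to a fixed total, a lower share of 1 gene raises the others. The cytochrome b share was 12.01 to 13.05% in AL of run 1, 12.3 to 12.7% in LS and 12.5 to 12.8% in Ctrl of run 1, and overlapped between the groups.

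**Figure D4:**
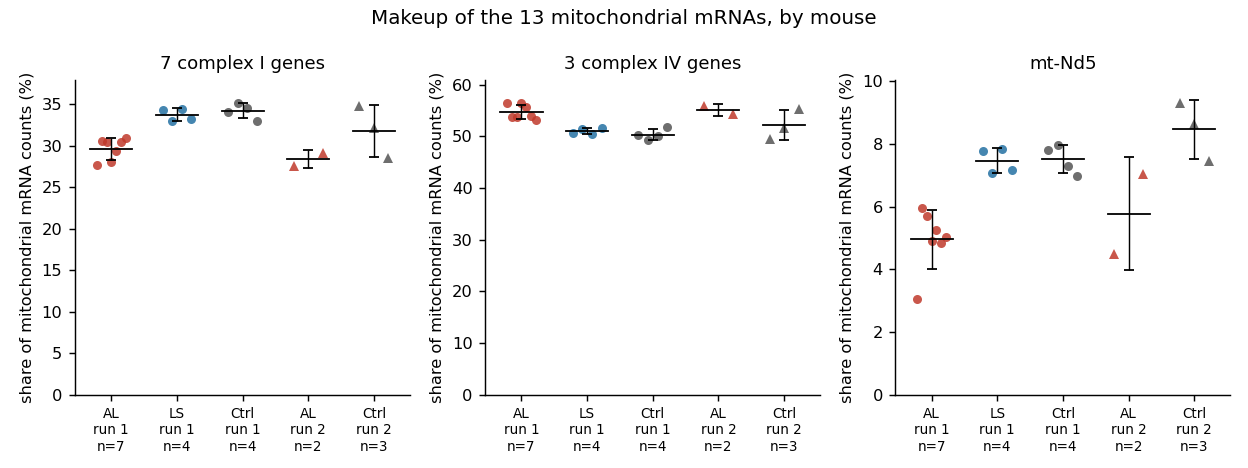
Share of the counts of the 13 mitochondrial mRNAs, in percent, taken by the 7 complex I genes, the 3 complex IV genes and mt-Nd5 in each mouse by group and sequencing run (line and bar, mean ± SD). In run 1 the AL mice lie below LS and Ctrl for complex I and mt-Nd5 and above them for complex IV, and in run 2 Ctrl7 lies with the AL mice for complex I and complex IV.

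Between the sequencing runs the mitochondrial genes differed more than between the groups. In run 2, 14 of 15 genes were lower at an FDR under 0.05 and 0 higher, beside 22.4% of all genes lower and 21.4% higher, and 10 also passed 0.58, beside 19.4% of all genes. mt-Nd5 alone did not pass (log2FC -0.33, SE 0.145, FDR 0.0724). The run term was estimated from AL and Ctrl mice only. Nuclear genes of the mitochondrion moved the same way. Of 75 tested entries for nuclear subunits of complexes I, III, IV and ATP synthase, 54 (72%) were lower and 1 higher. Their median log2FC was -0.59, beside -0.70 for the 15 mitochondrial genes. Of 82 mitochondrial ribosome genes, 37 (45.1%) were lower and 6 higher (median -0.24). The short genes differed most. mt-Atp8 had 1155 to 2134 CPM in the 15 mice of run 1 and 22.5, 23.3, 75.01, 46.6 and 20.9 CPM in AL8, AL9, Ctrl5, Ctrl6 and Ctrl7 (log2FC -5.27, SE 0.288, FDR 2.01e-10). mt-Nd4l, mt-Nd6 and mt-Nd3 were lower by 6.72-fold, 6.21-fold and 4.86-fold. The rRNA genes had log2FC of -1.87 (mt-Rnr2) and -1.43 (mt-Rnr1), and the other 9 mRNAs values between -0.89 (mt-Co3) and -0.33.

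Over the 13 protein genes the run log2FC rose with gene length (Spearman rho 0.885, Pearson r 0.742, across genes of the same libraries, which are not independent). Over 14267 nuclear genes rho was 0.140. The 33 nuclear genes with transcripts under 400 bases had a median run log2FC of -0.34 (quartiles -1.74 and 1.03), beside -2.75 for the 3 mitochondrial genes of that length. The fit with run as a term removes a constant difference between runs, and the levels of mt-Atp8 and mt-Nd6 in run 2 rested on 190 to 762 and 254 to 1099 counts per mouse. The AL to Ctrl difference was also tested against run. 0 of the 15 genes passed an FDR of 0.05 for this interaction in edgeR (3 at an unadjusted p under 0.05), beside 0.701% of 13835 genes, and its lowest FDR was 0.129 for mt-Nd6 (difference of log2FC -1.25, SE 0.377). With Ctrl7 left out, 2 genes passed, and calls over all genes were not counted in that fit. The result also changed without AL8, but that fit left 1 AL mouse in run 2, assumed to vary like the others. Its calls are therefore not given.

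**Figure D5:**
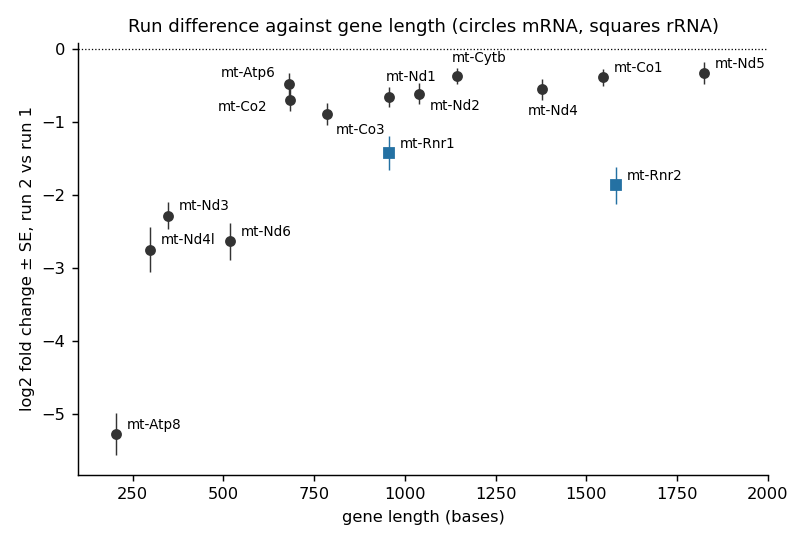
Log2 fold change ± SE of run 2 against run 1 (edgeR, group in the model) against gene length in bases for the 13 protein genes (circles) and 2 rRNA genes (squares). The 4 protein genes under 600 bases lie between -5.27 and -2.28 and the longer ones between -0.89 and -0.33.

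Nuclear genes that serve the mitochondrial genome were counted by role. Of 10 genes for mitochondrial transcription, 5 were lower in AL than in Ctrl and 0 higher (median log2FC -0.22), and 4 were lower than in LS and 0 higher (-0.21). Tfb1m, the methyltransferase of the small rRNA, had -0.75 (SE 0.150, FDR 0.00172) against Ctrl and -0.72 (FDR 0.00537) against LS. The initiation factor Tfb2m had -0.36 (FDR 0.0157) against Ctrl and -0.37 (FDR 0.0327) against LS, and Tfam, which packages mitochondrial DNA and opens its promoters, had -0.22 (FDR 0.0267) and -0.29 (FDR 0.0138). For this and the lists that follow, the shares over all genes tested were 15.4% lower and 10.7% higher against Ctrl and 13.6% lower and 9.77% higher against LS, with a median log2FC of 0.01 in both.

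Of 23 genes for processing and stability of mitochondrial RNA, 5 (21.7%) were lower and 1 (4.35%) higher in AL than in Ctrl, and 6 (26.1%) and 1 than in LS, beside 15.4% and 13.6% of all genes lower. The median log2FC were -0.11 and -0.20. Lrpprc, which stabilises mitochondrial mRNAs, had a log2FC of -0.53 (SE 0.0976, FDR 0.000957) and -0.57 (FDR 0.0019). The exoribonuclease gene Pnpt1 had -0.41 (FDR 0.00117) and -0.40 (FDR 0.00353), and Trmt10c, a subunit of the RNase P that frees tRNAs, had -0.36 (FDR 0.00506) and -0.38 (FDR 0.00951). The gene that was higher in both, named after its values were seen, was Elac2, which cuts tRNA 3' ends (0.25, FDR 0.00584, and 0.22, FDR 0.0338). Of 13 translation factor genes 5 (38.5%) were lower and 0 higher in either comparison (median log2FC -0.17 and -0.22). They were led by Taco1, an activator of mt-Co1 translation (-0.84, SE 0.121, FDR 0.000235, and -0.81, FDR 0.000813). Gfm1 (-0.53, FDR 0.000321, and -0.44, FDR 0.00374) and Gfm2 (-0.28, FDR 0.00562, and -0.32, FDR 0.00697) followed, which code for translation factors of the mitochondrial ribosome.

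Of 10 regulators of mitochondrial biogenesis, 4 were lower and 0 higher in either comparison (median log2FC -0.23 and -0.16), beside 15.4% and 13.6% of all genes lower. Ppara, a nuclear receptor for fatty acid oxidation genes, had -1.23 (SE 0.225, FDR 0.000941) against Ctrl and -1.30 (FDR 0.00196) against LS. The coactivator gene Ppargc1a had -0.51 (FDR 0.0119) and -0.93 (SE 0.156, FDR 0.000708). Esrrg had -0.56 (FDR 0.0022) and -0.58 (FDR 0.00486), and Gabpa had -0.33 (FDR 0.00183) and -0.37 (FDR 0.00279). Of 15 genes for upkeep of mitochondrial DNA, 1 (6.67%) was lower and 1 higher against Ctrl, and 1 and 0 against LS, under the shares over all genes. Rrm2b, a ribonucleotide reductase subunit, was the lower one (-0.69, SE 0.0996, FDR 0.000229, and -0.73, FDR 0.000537), and Tk2, a mitochondrial thymidine kinase, the higher (0.26, FDR 0.0432).

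Few nuclear genes of the mitochondrial ribosome passed the test. Of 82 tested genes whose symbols begin with Mrpl or Mrps, 7 (8.54%) were higher and 6 (7.32%) lower in AL than in Ctrl, and 4 (4.88%) and 6 than in LS, each under the share over all genes (10.7% higher and 15.4% lower against Ctrl, 9.77% and 13.6% against LS). Against Ctrl, Mrps27 had -0.33 (FDR 0.00153), Mrps18a 0.38 (FDR 0.00218) and the pseudogene Mrpl48-ps -2.72 (FDR 0.00201). Against LS, Mrpl48-ps had -3.77 (FDR 0.000658), Mrpl9 -0.55 (FDR 0.00445) and Mrps34 0.57 (FDR 0.00602). Of 75 tested entries for nuclear subunits of complexes I, III, IV and ATP synthase, 12 (16%) were higher and 4 (5.33%) lower than in Ctrl, beside 10.7% and 15.4% of all genes, and 0 and 4 than in LS, beside 9.77% and 13.6%.

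Among the nuclear complex I genes, Ndufs1, the largest subunit of the matrix arm, had -0.50 (SE 0.0858, FDR 0.000615) against Ctrl and -0.59 (FDR 0.000708) against LS. Ndufb7 and Ndufa13 had 0.33 (FDR 0.0163) and 0.32 (FDR 0.0182) against Ctrl. The complex III core gene Uqcrc2 had -0.25 (FDR 0.0459) and -0.36 (FDR 0.0178), and Uqcr10 had 0.36 (FDR 0.0487) against Ctrl. Cox5a and Cox4i1 of complex IV had 0.29 (FDR 0.0256) and 0.26 (FDR 0.0263) against Ctrl. Atp5a1, the α subunit of ATP synthase, which the table lists under 2 gene identifiers, had -0.23 (FDR 0.0134) and -0.22 (FDR 0.0238) against Ctrl, and Atp5e had 0.45 (FDR 0.0294). The LS to Ctrl comparison called 0 genes in each of these lists.

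The tissue label was borne out by the level of the cardiomyocyte markers. All 12 passed the filter on low counts, which does not tell tissues apart, since all 12 hepatocyte markers below passed it too. Summed levels of marker lists are CPM on total counts, without TMM scaling. In run 1 the summed cardiomyocyte level was 64787 to 77846 CPM in AL, 70802 to 82598 CPM in LS and 73221 to 78975 CPM in Ctrl. It was 91938 to 102196 CPM in the 5 mice of run 2. Of the 12 cardiomyocyte markers, 2 were lower in AL than in Ctrl (Pln, log2FC -0.44, FDR 0.0135, and Myh6, -0.33, FDR 0.0226) and 4 lower than in LS. With the mean level of the list as a covariate, mt-Nd5 kept a log2FC of -0.74 (FDR 0.00283) against Ctrl and -0.77 (FDR 0.0296) against LS, and it was the only one of the 15 genes that passed in either comparison. Over all 14477 genes, 2547 and 677 passed in that fit, beside 3792 and 3381 without the covariate.

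Hepatocyte markers also moved with the groups. All 12 passed the filter and were lower in AL than in Ctrl, and 10 lower than in LS, with a summed level of 2.21 to 46.2 CPM in AL, 7.59 to 196 CPM in LS and 50.5 to 308 CPM in Ctrl of run 1, and 2.30 to 7.93 CPM in run 2. With that list as a covariate mt-Nd5 had -0.92 (FDR 0.00343) and -1.01 (FDR 0.0023). Of the fibroblast, endothelial and macrophage lists, 10 genes each, 1, 1 and 2 were higher in AL than in Ctrl and 0 lower, beside 10.7% and 15.4% of all genes. The summed endothelial level moved with the groups in run 1, at 1171 to 1959 CPM in AL, above the 869 to 1018 CPM in LS and 964 to 1152 CPM in Ctrl. In run 2 it was 987 to 1248 CPM in AL and 1263 to 1434 CPM in Ctrl. The sum gives most weight to abundant genes. Over the 10 endothelial genes the median log2FC was 0.04 against Ctrl (6 above 0) and 0.19 against LS (9 above 0). The part of the endothelial level in the mitochondrial differences was not tested. AL9, the mouse with the lowest mitochondrial share, had the highest summed fibroblast level, 6712 CPM against 606 to 2068 CPM in the other 19 mice. It also had the highest summed macrophage level, 1030 CPM against 208 to 604 CPM, and the part of either in that share was not tested.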

How the data were processed

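Heart apex RNA of 20 mice was analysed. Per the labels and the study's methods, the authors made strand-specific libraries of polyadenylated RNA, aligned paired-end reads to GRCm38 with STAR and quantified genes with Salmon, and they deposited 1 table of estimated counts for 25308 genes, neither scaled nor adjusted for run. Of these values 14.2% were not whole, and all were rounded. Intervals and floors (3 counts) cover counting error only. Columns were matched to mice by library name, and groups and runs came from the labels.

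Genes were filtered with filterByExpr (minimum count 10, 14477 genes kept), scaled by TMM and tested with the quasi-likelihood test of edgeR 4.0.16 in R 4.3.3, with group and run as terms, all 20 mice in 1 fit and Benjamini-Hochberg adjustment (FDR) over all tested genes. All tests were two-sided. The fit was tested on simulated data. The interaction fit used AL and Ctrl mice. The mitochondrial share, a sum over members, was described without a test. Members and lists were chosen with earlier results of these data known. Named were the 13 protein and 2 rRNA genes whatever their result, and of each nuclear list the genes past an FDR of 0.05 against Ctrl or LS, at most the 3 of lowest p per comparison. The list of replication histones matched no symbol of the table. The lists of adipocyte, skeletal muscle, erythroid, immediate-early and non-polyadenylated RNA genes had 7, 5, 6, 10 and 3 tested genes. Against Ctrl, 0, 2, 0, 1 and 0 of them were higher and 0 lower, beside 10.7% and 15.4% of all genes. Against LS, 1, 2, 0, 0 and 0 were higher and 1 immediate-early gene was lower, beside 9.77% and 13.6% of all genes. These lists are not described further.

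Alternatives were RLE factors, library sizes from nuclear genes only, DESeq2 1.42.0, no filter, at least 10 counts in every mouse, ComBat-seq (sva 3.50.0), no run term, run 1 only, a replicate block, only the compared groups, covariates of marker lists, and each mouse left out. Same-numbered mice of different groups had residual correlations of -0.15 to 0.23 (3 of 15 over 0.1), so numbers were not treated as pairs. Gene positions and sequences came from GENCODE M21. With blastn 2.17.0, 0 nuclear genes of the table matched a mitochondrial rRNA or mRNA over 100 bases at 95% identity, of 24575 genes with a transcript, so there were no nuclear copies to add to the share, and that alternative was not run. Figures were drawn with matplotlib 3.10.9.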

Additional observations from a re-analysis of the deposited data

Results flagged for a closer look

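AL9 stood apart from the other AL mice in 4 of the 16 sets of AL values tested with Dixon's criterion, for 15 genes and the mitochondrial share, which chance alone flags in about 1 of 20 groups. The same 16 sets in LS and in Ctrl held 0 such mice. It was the lowest of 9 for mt-Co1 (64195 CPM, next 112638), mt-Nd4 (12673 CPM, next 23982), mt-Cytb (19322 CPM, next 34179) and the mitochondrial share of counts (18.3%, next 26.4%). The 4 sets share their reads, so they are not independent. AL9 was sequenced in run 2 with 8948616 counts. The sets pooled both runs, AL9 was 1 of 2 AL mice of run 2, and 14 of 15 genes were lower in that run. The rate of 1 in 20 assumes that all mice of a set come from 1 population, and all LS mice were of run 1. Whether AL9 stands apart within its run cannot be told from 2 mice.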

How the results depend on the processing

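mt-Nd5 stayed lower in AL with an FDR under 0.05 in every alternative run, with a log2FC of -0.92 to -0.69 against Ctrl and -1.01 to -0.77 against LS. The count of the 15 genes past an FDR of 0.05 for AL against Ctrl was 3 (3792 over all 14477 genes). It fell to 1 without the run term (2183), with ComBat-seq counts (796), with the cardiomyocyte covariate (2547) and with the replicate block (2158). With single mice left out it was 2 to 4 (3001 to 4110 over all genes). For AL against LS it was 4 (3381 over all genes), then 1 with ComBat-seq counts (649) and with the cardiomyocyte covariate (677). It was 2 with the replicate block (3100) and 8 in run 1 alone (4640 of 14288). With single mice left out it was 1 to 5 (2255 to 3894). For run 2 against run 1 it was 14 (6330 over all genes), with 6 under the replicate block (3049). With single mice left out it was 11 to 15 (5910 to 6296). The numbers are not pairs by design, and the block left mt-Nd5 called (FDR 0.033 and 0.0105). The interaction gave 0, and 0 to 7 with single mice left out. LS against Ctrl gave 0 throughout.

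Several genes with a log2FC below 0 for AL against Ctrl turned above it. Without the run term the log2FC were 0.0086 (mt-Rnr1), 0.0155 (mt-Co1), 0.337 (mt-Atp8), 0.0224 (mt-Atp6), 0.133 (mt-Co3) and 0.106 (mt-Nd6), and mt-Nd3 against LS was -0.0755. For mt-Co1, mt-Atp6 and mt-Co3 they were 0.0286, 0.0876 and 0.0571 in run 1 alone and 0.0329, 0.159 and 0.135 under the replicate block. With the cardiomyocyte covariate mt-Co1 had 0.0198 and mt-Co3 0.00307. With single mice left out they were -0.139 to 0.0425 (mt-Co1), -0.197 to 0.0135 (mt-Atp6) and -0.151 to 0.0683 (mt-Co3), and the values above 0 were those without AL9. The cause was not tested.

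In run 1 alone the difference in mitochondrial share was -0.496, -2.65 and 2.16 percentage points for AL minus Ctrl, AL minus LS and LS minus Ctrl. It moved by less than 1 within-group SD there, with another denominator and with the 13 protein genes only. That margin is wide, and leaving out 1 mouse cannot exceed it in groups of this size. It therefore does not show that the difference is stable. With single mice left out it was -1.62 to 0.863 percentage points for AL minus Ctrl, -5.80 to -3.32 for AL minus LS and 3.125 to 5.24 for LS minus Ctrl, and AL minus Ctrl was above 0 without AL9 or Ctrl3. Adding nuclear copies to the share was not run, since none met the match rule. In run 2 the counts of mt-Atp8 were as low as 190 (AL8), which limits their precision.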
